A study of Homo sapiens with 13 samples.

Results

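Pericentromeric peaks were the CUT&RUN peaks whose summit lay within 2 Mb of a centromere gap of the human assembly hg19, on chromosomes 1 to 22. Each gap was taken as 3 Mb long from a start given to 0.01 Mb. Of 3429979 peaks in 12 lists, 79045 (2.305%) met this rule, and after overlapping peaks were merged they made up 37612 of 1603858 regions (2.345%). The rule used position alone and no measured value. The lists came from Nalm6, an established line of human B-cell acute lymphoblastic leukaemia, grown in medium with charcoal-stripped serum, in which steroids are depleted. Cells received prednisolone, a synthetic glucocorticoid, for 24 h at 5 µM, or served as controls, for which the labels give no treatment in one field and a vehicle in another. Chromatin was cut with an antibody against LEF1 or against TCF7L2, giving 4 groups with 3 replicates each, described as independent experiments. All results are from a single cell line, and the IgG sample was not analysed here.

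LEF1 and TCF7L2 are transcription factors of the TCF/LEF family, which bind the same DNA motif and carry β-catenin, the effector of canonical Wnt signalling, to its target genes. Prednisolone acts through the glucocorticoid receptor, another DNA-binding factor. Pericentromeric DNA flanks the centromere, is rich in satellite repeats and duplicated segments, is mostly packed as heterochromatin and holds few genes, and an assembly represents many of its repeats in fewer copies than the chromosome does. In CUT&RUN the antibody tethers a nuclease that releases the DNA near its target. MACS2 then calls peaks, giving each a fold over the background it modelled and a p-value. These folds and p-values are the authors' own, and tests of fold compared peaks within a list. Folds of a region printed for several lists are description only, since no scaling between lists was made.

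The lists held 128863 to 395786 peaks, of which 2675 to 10251 were pericentromeric. Of the pericentromeric regions 65.0% had a peak in 1 list alone, and 231 (0.614%) had one in all 12. Read totals were not used, so the depth behind a peak is known only through its list. Of the 44 sides of a gap, 37 held peaks and 7 held none (1q, 9q, 13p, 14p, 15p, 16q and 22p). Summits that fell inside a gap as rounded numbered 65, at most 4.47 kb from its edge. The 2 Mb limit crossed no step in the data: the last 0.1 Mb inside held 4796 peaks with a median fold of 2.36, 24 of them top peaks as defined next, and the first 0.1 Mb outside held 4724 peaks with a median fold of 2.39, 25 of them top peaks.

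Because the lists differed in length, lists cut to the same size were compared, mainly the 2000 peaks with the lowest p-values of each library, called top peaks here. The pericentromeric windows held 720 of the 28761 bins of 100 kb in which any list had a peak (2.50%). The share of top peaks that were pericentromeric was 2.95 to 3.20% in LEF1 controls and 2.40 to 2.95% in treated LEF1. In TCF7L2 it was 2.60 to 3.55% in controls and 6.75 to 12.65% with prednisolone. Each control list of either antibody was thus above the share of bins, and the treated TCF7L2 lists were well above it. LEF1 had 59, 62 and 64 pericentromeric top peaks in control libraries 1, 2 and 3, and 59, 48 and 48 in prednisolone libraries 1, 2 and 3. TCF7L2 had 70, 52 and 71 in controls, and 135, 217 and 253 with prednisolone. All 3 treated TCF7L2 libraries stood above all 9 others, and the treated LEF1 libraries stood at or below the LEF1 controls.

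**Figure D1:**
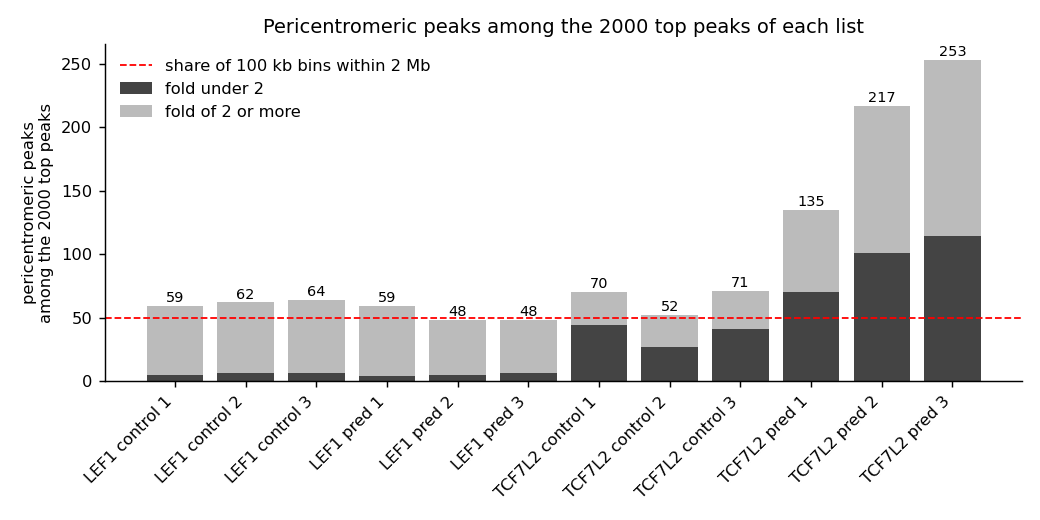
Number of pericentromeric peaks among the 2000 top peaks of each library, stacked by the authors' fold (under 2, dark; 2 or more, light); pred stands for prednisolone, and the dashed line marks 2.50% of 2000, the share of 100 kb bins. The treated TCF7L2 libraries hold 135, 217 and 253 such peaks, against 48 to 71 in the other 9, and both fold classes are larger there.

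As shares of the 2000 top peaks, the TCF7L2 controls had 3.22% ± 0.535 (SD, n = 3) and the treated libraries 10.1% ± 3.02 (SD, n = 3). The highest single share, 12.65% in TCF7L2 prednisolone 3, had an exact 95% interval of 11.2 to 14.2%, and the lowest, 2.40% in LEF1 prednisolone 2 and 3, had 1.77 to 3.17%. These Clopper-Pearson intervals, like all others below, cover counting error only. They treat peaks or regions as independent, although many lie close together, so they may be too narrow. The log2 difference between treated and control TCF7L2 libraries was 1.61, or 3.06-fold (exact permutation test, two-sided, p = 0.1, adjusted p = 0.127). With 3 libraries against 3, an exact permutation p of 0.1 is the smallest that can be had. The p-values of the 14 main tests were adjusted by the Benjamini-Hochberg method. Any p-value printed without an adjusted one beside it, as for other settings, is unadjusted. For LEF1 the shares were 3.08% ± 0.126 (SD, n = 3) in controls and 2.58% ± 0.318 (SD, n = 3) with prednisolone, a log2 difference of −0.26 (exact permutation test, two-sided, p = 0.2, adjusted p = 0.233).

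The treatment difference itself differed between the antibodies, by 1.88 on the log2 scale (exact permutation of treatment labels within each antibody, two-sided, p = 0.01, adjusted p = 0.0467; 400 relabellings, smallest possible p = 0.005). TCF7L2 minus LEF1 over both treatments was 0.99, with the labels exchanged within treatment (exact permutation test, two-sided, p = 0.045, adjusted p = 0.09), which misses 0.05 after adjustment. Ranking the peaks by fold in place of p-value ended the first call (0.68, exact permutation p = 0.2), turned the antibody difference to −0.25 (exact permutation p = 0.25) and took the TCF7L2 treatment difference to 0.68 (exact permutation p = 0.3). Among the 500 top peaks the TCF7L2 controls had 21, 13 and 15 pericentromeric peaks and the treated libraries 43, 79 and 77, a log2 difference of 2.00, whereas among the 20000 top peaks it was 0.77.

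The libraries also fell into sets by the length of their shortest peak, called set A (control 1, prednisolone 2 and 3) and set B (control 2 and 3, prednisolone 1) for each antibody. In LEF1 this length was 164 to 165 bp in set A and 187 to 197 bp in set B, and in TCF7L2 193 to 201 bp in A and 158 to 167 bp in B. Within set A the log2 treatment difference of TCF7L2 top peaks was 1.74 and within set B 1.15, and for LEF1 the values were −0.30 and −0.09. The difference of TCF7L2 minus LEF1 was 1.61 in set A and 0.36 in set B. These means are not balanced for treatment, since set A holds more prednisolone libraries and set B more controls. The 2 values therefore cannot be read as a difference between the sets. Each set holds 1 library of one of the treatments, so no test was made within a set.

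A fixed q-value gave the same order by a measure that does not depend on a fixed list length. With a −log10 q-value of 5 or more, the TCF7L2 controls had 81, 60 and 113 pericentromeric peaks out of 2401, 2450 and 3524 peaks in all. The treated TCF7L2 libraries had 148, 167 and 185 out of 2249, 1364 and 1271. The pericentromeric number was thus higher in each treated library than in any control, while the total was lower in each, and the pericentromeric share was 3.01% ± 0.493 (SD, n = 3) in controls and 11.1% ± 4.10 (SD, n = 3) with prednisolone. The LEF1 lists had 425 to 559 such pericentromeric peaks out of 21764 to 27309, at shares of 1.95 to 2.09%. The 2000th peak of a list had a −log10 q-value of 26.6 to 32.0 in LEF1, of 5.82 to 7.83 in TCF7L2 controls and of 3.11 to 5.48 in treated TCF7L2, so the top peaks reached less stringent values in the treated TCF7L2 lists.

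In the full lists, which end at a −log10 p-value of 1.301, the differences were small. The pericentromeric share was 2.21, 2.13 and 2.15% in LEF1 controls and 2.06, 1.99 and 2.08% with prednisolone. It was 2.24, 2.32 and 2.34% in TCF7L2 controls and 2.59, 2.59 and 3.17% with prednisolone. The groups of each antibody did not overlap, with lower values for LEF1 and higher values for TCF7L2 under treatment. The log2 difference was −0.08 for LEF1 and 0.27 for TCF7L2 (exact permutation tests, two-sided, each p = 0.1, adjusted p = 0.127). The difference between these treatment effects was 0.35 and that of TCF7L2 minus LEF1 was 0.26 (exact permutation tests within antibody and within treatment, two-sided, each p = 0.005, adjusted p = 0.035).

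The treatment groups stood farthest apart close to the gap. Within 250 kb of it the TCF7L2 controls had 35, 19 and 32 top peaks, and the treated libraries had 77, 135 and 161. LEF1 had 19, 18 and 21 there in controls, and 15, 10 and 10 with prednisolone, so that treated libraries stood above controls for TCF7L2 and below them for LEF1. When only peaks within 250 kb were counted, the log2 treatment difference was 2.10 for TCF7L2 and −0.75 for LEF1 (exact permutation tests, two-sided, each p = 0.1), and the difference between them 2.85 (exact permutation test within antibody, p = 0.005). TCF7L2 minus LEF1 was 1.95 within 250 kb (exact permutation test within treatment, p = 0.015). This distance was chosen after the values had been seen.

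Farther out the difference was smaller. From 0.50 to 0.75 Mb the mean number of top peaks was 11.3 in TCF7L2 controls and 30.3 in treated TCF7L2, against 6.33 and 6.0 in LEF1, and the TCF7L2 groups did not overlap (8 to 15 and 24 to 37). From 1.75 to 2.00 Mb it was 4.67 and 4.0 in TCF7L2, and 8.0 and 5.67 in LEF1. Over the neighbouring 2 to 4 Mb as a whole, the number of top peaks was 61, 64 and 46 in TCF7L2 controls and 60, 60 and 67 with prednisolone. These flanks hold 719 bins with a peak, nearly as many as the pericentromeric windows, and the TCF7L2 groups overlapped there. Between 2.25 and 2.50 Mb the TCF7L2 mean was 11 in controls and 19 with prednisolone, again without overlap (8 to 13 and 18 to 20).

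**Figure D2:**
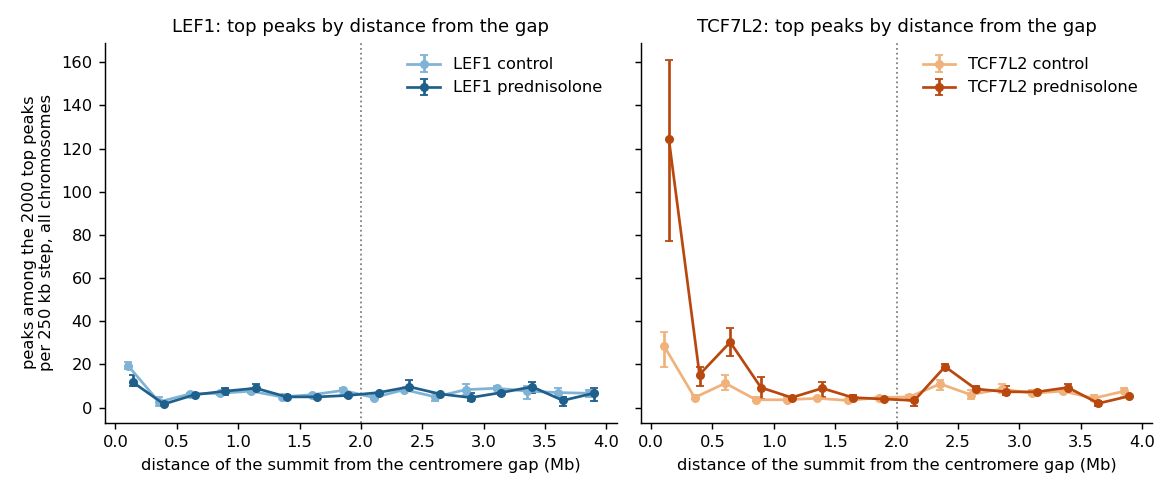
Number of top peaks per 250 kb step of distance from the centromere gap, summed over chromosomes, as the mean of 3 libraries (points) with the lowest and highest library (bars); the dotted line marks 2 Mb. In the step next to the gap the TCF7L2 mean is 28.7 in controls and 124.3 with prednisolone, and the LEF1 mean is 19.3 and 11.7.

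The additional TCF7L2 top peaks were spread over many chromosomes. Of the 37 sides of a gap with peaks, the sum over 3 treated TCF7L2 libraries was above that over 3 controls on 33, equal on 3 and below on 1 (2q, with 1 top peak in each control and none with prednisolone). For LEF1 it was above on 8, equal on 14 and below on 15. The short arm of chromosome 4 had 9 to 15 TCF7L2 top peaks in controls and 25 to 37 with prednisolone, and the long arm of chromosome 10 had 13 to 15 and 28 to 34. On 10p the numbers were 1 to 2 and 7 to 20, on 11p 1 to 3 and 8 to 16, and on 16p 1 to 3 and 6 to 14. On 2p, where LEF1 was also strong, TCF7L2 had 5 to 12 and 14 to 16, and LEF1 had 10 to 11 and 7 to 9. No side was tested alone.

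**Figure D3:**
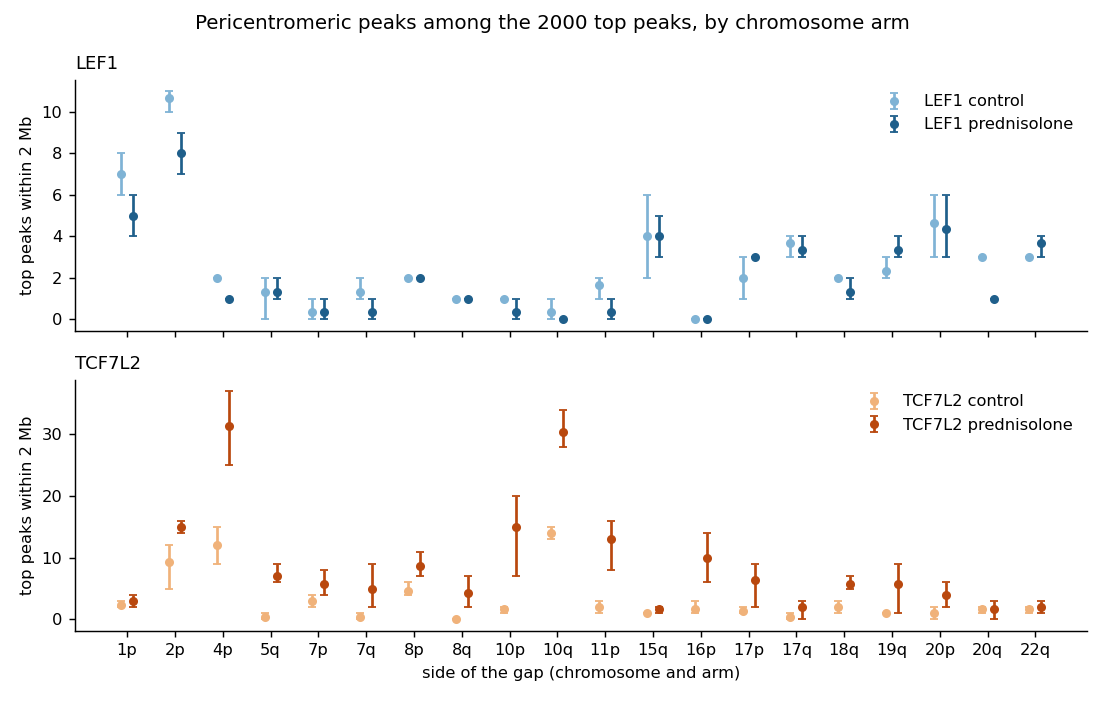
Number of pericentromeric top peaks on each side of the gap, for sides whose 4 group means sum to 6 or more, as the mean of 3 libraries (points) with the lowest and highest library (bars); the axes of the panels differ in scale. The 4p and 10q sides of TCF7L2 reach 37 and 34 top peaks with prednisolone, and no LEF1 side exceeds 11.

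Single bins of 100 kb held a sizeable part of them. Of 1138 pericentromeric top peaks summed over the lists, 21.8% lay in 3 of 158 bins. The bin chr2:92300001-92400000, at the gap, was strong for both antibodies, with 9, 8 and 9 top peaks in LEF1 controls, 8, 6 and 6 in treated LEF1, 9, 4 and 9 in TCF7L2 controls and 11, 11 and 10 in treated TCF7L2. The other bins were TCF7L2 bins. In chr10:42300001-42400000 TCF7L2 had 6, 6 and 8 top peaks in controls and 16, 17 and 21 with prednisolone, and LEF1 had 1 in all. In chr4:49100001-49200000 TCF7L2 had 5, 4 and 8 in controls and 16, 18 and 22 with prednisolone, and LEF1 had none in any of the 6 lists. Without these 3 bins the log2 treatment difference of TCF7L2 was 1.72.

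Pericentromeric top peaks of TCF7L2 had low folds for their p-values. Of the pericentromeric top peaks, 44, 27 and 41 had a fold under 2 in TCF7L2 controls, and 70, 101 and 114 with prednisolone. Their share was 57.5% ± 5.47 (SD, n = 3) in controls and 47.8% ± 3.57 (SD, n = 3) with prednisolone, and among all other top peaks it was 0.345% ± 0.109 (SD, n = 3) and 2.78% ± 0.848 (SD, n = 3). In LEF1 4 to 6 pericentromeric top peaks per list had such a fold, against at most 1 of all other top peaks. Pericentromeric peaks thus made up 64.7 to 87.2% of the top peaks with a fold under 2 in TCF7L2. The peaks with a fold of 2 or more also numbered more with prednisolone, at 65, 116 and 139 against 26, 25 and 30 in TCF7L2 controls, and when peaks with a fold under 2 were set aside and the rest ranked anew, the log2 treatment difference was 1.97.

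The median fold of pericentromeric top peaks was 1.81 to 2.12 in the 6 TCF7L2 lists, against 4.81 to 6.41 for all other top peaks. In LEF1 it was 9.41 to 10.99, against 11.4 to 12.3. Among the 2000 top peaks the within-list log2 difference of the medians was −1.50 for TCF7L2 and −0.20 for LEF1, lower for members in 6 of 6 lists of each (exact sign-flip permutation tests over 6 libraries, two-sided, each p = 0.03125, unadjusted), the smallest p that 6 libraries allow. Among the 20000 top peaks it was −0.08 for LEF1 (exact sign-flip permutation test, two-sided, p = 0.03125, adjusted p = 0.0729) and −0.08 for TCF7L2 (exact permutation p = 0.0625, adjusted p = 0.109). Pericentromeric peaks were lower in 6 of 6 LEF1 lists and in 5 of 6 TCF7L2 lists, with equal medians in TCF7L2 control 1.

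**Figure D4:**
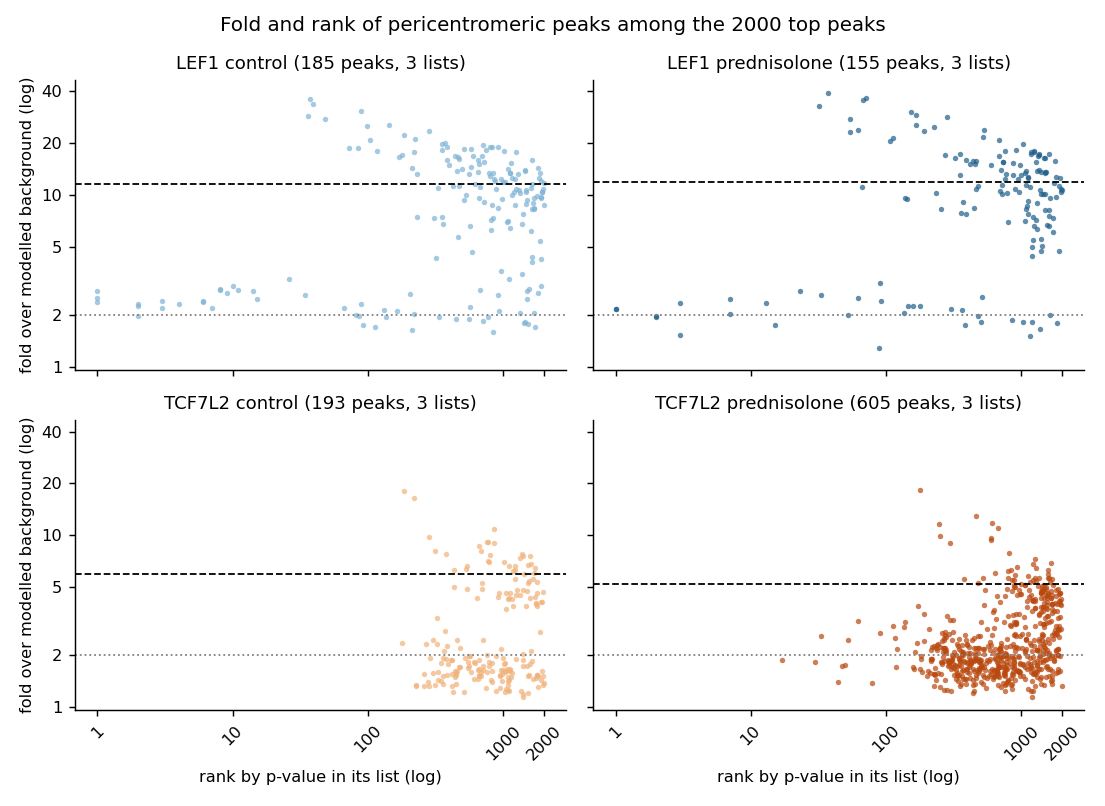
Each pericentromeric top peak by its rank in its list (1 is the lowest p-value; log axis) and the authors' fold over modelled background (log axis), by group; the dashed line is the mean over libraries of the median fold of all other top peaks, and the dotted line a fold of 2. LEF1 members lie in 2 bands, one near the dashed line and one of low fold that reaches rank 1, whereas most TCF7L2 members lie near or under a fold of 2 at ranks from 17 on.

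Peak length gave no call after adjustment among the 20000 top peaks. Among the 20000 top peaks the median length of LEF1 members was shorter than that of other peaks in 6 of 6 lists, by 0.11 on the log2 scale (−0.11; exact sign-flip permutation test, two-sided, p = 0.03125, adjusted p = 0.0729). For TCF7L2 the difference was 0.05 (exact permutation p = 0.594, adjusted p = 0.594), positive in 3 of 6 lists, which were the treated ones. In TCF7L2 controls the medians were 536.5, 483 and 492.5 bp for members and 596, 520 and 521 bp for other peaks. With prednisolone they were 493, 568 and 514 bp for members, and 459, 502 and 402 bp for other peaks. Among the 2000 top peaks the TCF7L2 members were shorter, by a log2 difference of −0.49 (exact sign-flip permutation test, two-sided, p = 0.03125, unadjusted), so the direction turned with the length of the list.

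Counting all listed peaks, the density per bin within 2 Mb was below that of the 2 to 4 Mb flank in 6 of 6 LEF1 lists, with a log2 ratio of −0.37 (exact sign-flip permutation test, two-sided, p = 0.03125, adjusted p = 0.0729). For TCF7L2 the log2 ratio was −0.05 (exact permutation p = 0.562, adjusted p = 0.594), and 2 of 6 lists, prednisolone 2 and 3, were above 0. The TCF7L2 direction turned in shorter lists, with a log2 ratio of 0.32 among the 20000 top peaks (exact permutation p = 0.25) and 0.91 among the 2000 (exact permutation p = 0.0938). For LEF1 the ratio stayed negative among the 20000, at −0.40 (exact permutation p = 0.03125, unadjusted), and was 0.023 among the 2000 (exact permutation p = 0.719).

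The strongest members of both antibodies were partly the same regions. The region chr8:43094373-43097510, 742 kb from the gap, ranked 1 in 5 LEF1 lists and 3 in LEF1 prednisolone 3, with folds of only 1.53 to 2.75 over peaks of 2714 to 3134 bp. In the TCF7L2 lists it ranked between 179 and 362, with folds of 1.32 to 1.67 over 447 to 625 bp. The region chr18:18518122-18520317, 58.1 kb from the gap, ranked 3 to 15 in LEF1, 277, 360 and 328 in TCF7L2 controls and 157, 30 and 17 in treated TCF7L2. It was thus among the 500 top peaks of all 12 lists, with folds of 1.36 to 2.40. The best rank of any member was 1 to 3 in LEF1 lists, 178 to 226 in TCF7L2 controls and 17 to 116 in treated TCF7L2.

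Of the other strong regions, some differed between the antibodies in fold or were missing from LEF1 lists. The region chr15:21183153-21185102, 1183 kb from the gap, had the largest folds of the LEF1 members named here, at 36.0, 33.9 and 30.8 in controls and 36.8, 39.2 and 35.9 with prednisolone, without separation of the groups. TCF7L2 had folds of 7.52 to 12.9 there. The region chr22:17847248-17850502, 1847 kb from the gap, had TCF7L2 folds of 9.75, 17.99 and 16.6 in controls and 18.3, 11.7 and 9.83 with prednisolone, at ranks of 179 to 284, and LEF1 folds of 1.57 to 3.63. The region chr19:27731976-27733462, 52.0 kb from the gap, had a peak in no LEF1 list and ranked 315, 419 and 344 in TCF7L2 controls and 226, 50 and 47 in treated TCF7L2, at folds of 1.32 to 1.76. At chr10:42391432-42391905, 141 kb from the gap, TCF7L2 folds were 2.26 to 2.33 in controls and 2.44 to 2.96 with prednisolone. LEF1 peaks there were short, at 185 to 231 bp, and 2 treated LEF1 lists had none. The remaining strong LEF1 regions, chr2:92322474-92326152 and chr8:43092771-43093917, ranked 6 to 52 and 2 to 88 in the LEF1 lists, with folds between 1.29 and 2.47. They were strong in TCF7L2 too, the former at ranks of 446, 2119 and 574 in controls and 308, 254 and 215 with prednisolone, the latter at ranks of 226 to 435 in all 6 lists.

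Regions were called gained where all 3 prednisolone libraries and no control library of an antibody had a top peak, and lost for the opposite. A single region cannot pass a test with 3 libraries against 3, so these are counts without a test. The regions counted are those with a top peak in any of the 6 lists of the antibody. Treated TCF7L2 lists hold more pericentromeric top peaks, and many regions entered through them. The gained and lost shares here and below therefore restate those numbers and are no further support. For TCF7L2, 35 of 320 pericentromeric regions (10.9%, 95% interval 7.74 to 14.9) were gained among the 2000 top peaks, against 2.46% of all regions, and 1 (0.313%) was lost, against 1.84% of all. Pericentromeric regions were 29.4% of the 119 regions gained anywhere, while 6.62% of all regions counted were pericentromeric. For LEF1, 4 of 96 (4.17%) were gained and 6 (6.25%) were lost, near the shares of all regions, 4.31% and 3.76%.

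With the 20000 top peaks of each list TCF7L2 again had more gained and fewer lost members than all regions by share. For TCF7L2, 56 of 2365 pericentromeric regions (2.37%, 95% interval 1.79 to 3.06) were gained, against 0.360% of all regions, and 10 (0.423%) were lost, against 1.24%. They were 19.6% of the 286 regions gained anywhere, while 2.98% of all regions tested were pericentromeric. For LEF1, 24 of 765 (3.14%) were gained and 11 (1.44%) lost, against 2.82% and 1.92% of all regions, so that for LEF1 both shares changed sides of the background between the list lengths. Gained TCF7L2 regions with no peak of any strength in a full control list numbered 14 (0.592%, against 0.0580% of all regions), and lost ones with none in a treated list 3 (0.127%, against 0.192%). For LEF1 these numbers were 1 (0.131%, against 0.0569%) and 0 (against 0.00813%; the upper limit of the 95% interval is 0.481%). Counting full lists in place of top peaks, 106 TCF7L2 regions were gained (0.323%, against 0.126% of all) and 110 lost (0.335%, against 0.439%), and 30 LEF1 regions were gained (0.217%, against 0.282%) and 155 lost (1.12%, against 0.710%). Leaving out prednisolone 1, 2 or 3 took the TCF7L2 gained count to 130, 89 or 95, where a region needs a top peak in 2 libraries only. No share over all regions is given for these counts.

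The 35 gained TCF7L2 regions lay on 11 chromosomes, 12 of them on chromosome 10 and 6 on chromosome 4, and 25 lay within 250 kb of a gap, where 182 of the 320 regions tested lay. Their median fold was under 2 in 22 of 35, against 17 of the 84 gained regions elsewhere (20.2%). Of the 35, 25 (71.4%) had a peak in no LEF1 list, against 27.4% of those elsewhere. In the TCF7L2 control lists 24, 22 and 28 of the 35 had a weaker peak. Most gained regions had therefore been listed in controls below the top 2000, and 19 of 35 (54.3%) had a peak in all 3 full control lists. Of the gained regions elsewhere, more had one in all 3, at 64 of 84 (76.2%).

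**Figure D5:**
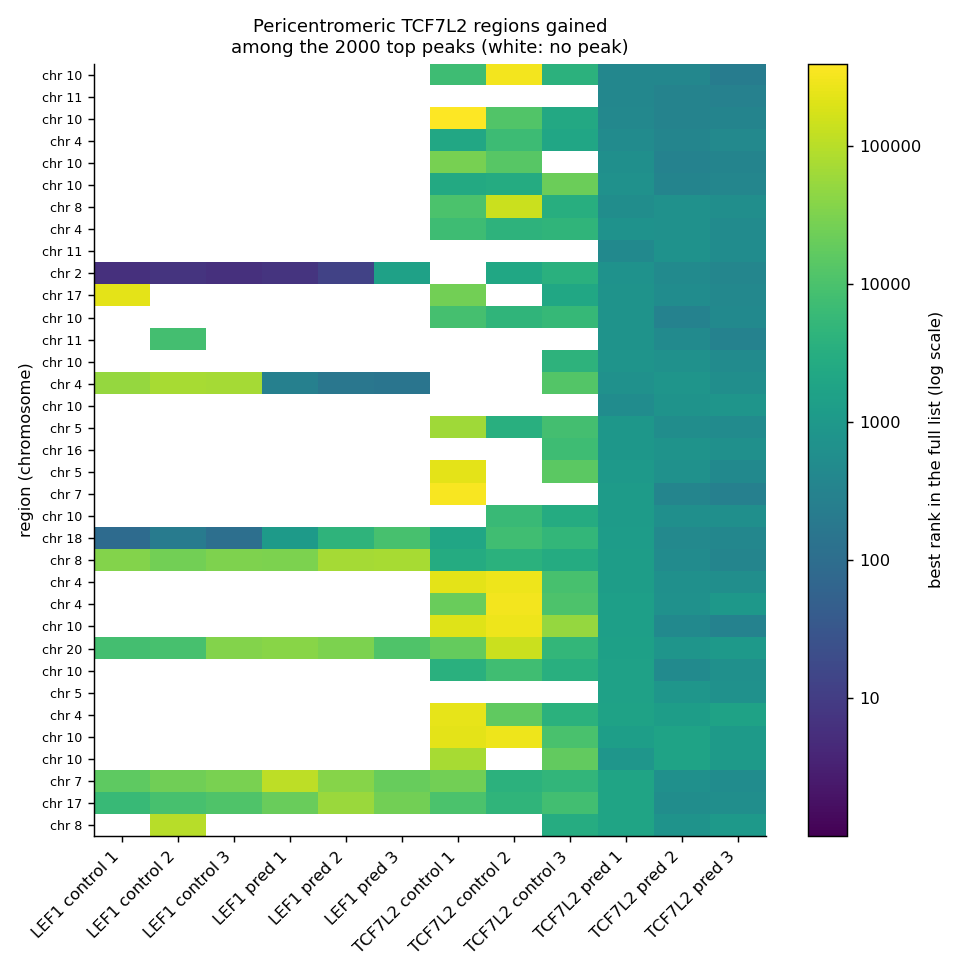
Best rank in the full list (color, log scale) of the 35 pericentromeric regions gained by TCF7L2 among the 2000 top peaks, one line of cells per region with its chromosome, in all 12 libraries; white marks a library with no peak. The columns of treated TCF7L2 are filled in all 35, those of TCF7L2 controls in 22 to 28, and those of LEF1 in 7 to 9.

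The gained TCF7L2 regions named by rank were 324 to 1439 bp long, with treated TCF7L2 folds of 1.23 to 2.75. On 11p, 50.9 kb from the gap, chr11:51588763-51589130 had ranks of 399, 313 and 290 and folds of 1.79 to 1.82 in treated TCF7L2, and none of the other 9 lists had a peak there. Near it chr11:51584620-51584998 had ranks of 767, 483 and 311 with folds of 2.22, 2.21 and 2.75, no TCF7L2 control peak, and a LEF1 peak in control 2 alone at rank 8455. Also on 11p, chr11:51579344-51579667 had folds of 1.55, 1.302 and 1.36. On 10q chr10:42531473-42532911 ranked 529, 765 and 841, with a peak in no other list. On 7q chr7:61968747-61969673 ranked 1185, 357 and 272 in treated TCF7L2 and 353216 in TCF7L2 control 1, and had no peak elsewhere. By the definition of a gain all 5 regions had a peak in every treated TCF7L2 library. Each had at most 1 peak in the other 9 lists.

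Of the 10 lost TCF7L2 regions none had a median fold under 2, and 9 had a peak in all 6 LEF1 lists. Regions lost elsewhere were alike in this, with 1 of 972 of such a fold and 80.8% in all 6 LEF1 lists. None of the 10 lay within 250 kb of a gap, where 601 of the 2365 regions tested lay. At chr2:97203914-97205119, 1874 kb from the gap, TCF7L2 ranked 1183, 1114 and 1338 in controls, with folds of 3.90 to 4.62, and had no peak with prednisolone. LEF1 had folds of 5.14 to 7.73 there in all 6 lists. At chr1:120671617-120672320 TCF7L2 had folds of 3.97, 6.40 and 7.80 in controls and 1 treated peak, at a fold of 3.00. LEF1 folds there were 18.3, 28.6 and 21.2 in controls and 17.96, 13.1 and 9.76 with prednisolone, all below the control values. The other lost regions named by rank, chr15:21260790-21261766, chr17:26398516-26399532 and chr14:20923406-20924006, had TCF7L2 control folds of 2.31 to 6.50.

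Of the LEF1 regions gained among the 20000 top peaks, none of 24 lay within 250 kb of a gap, and of the 11 lost, 5 did, where 121 of the 765 regions tested lay. The named gain with the highest folds was at chr4:54230530-54235855, 1571 kb from the gap, where LEF1 folds were 4.30, 3.84 and 4.10 in controls and 28.5, 29.0 and 30.2 with prednisolone. TCF7L2 folds there were 4.24, 3.26 and 6.27, and 11.1, 7.89 and 9.41, so that the TCF7L2 groups did not overlap. The separation of the LEF1 groups is tied to the selection of the region as a LEF1 gain. At chr7:56254963-56257237 LEF1 folds were 2.97, 3.90 and 4.72 in controls and 5.07, 7.67 and 7.0 with prednisolone. At chr17:21249054-21250510 they were 4.02, 3.12 and 1.64, and 5.07, 7.67 and 6.61. At chr22:17738252-17740080 LEF1 had folds of 1.59 to 2.24 in controls and 3.88 to 4.67 with prednisolone, and chr19:23562487-23562739 had a peak in 1 LEF1 control and all treated LEF1 lists. These 5 gained LEF1 regions lay more than 1 Mb from a gap.

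Among the named LEF1 losses, 3 lay within 250 kb of a gap, with TCF7L2 peaks in treated libraries. At chr20:26317851-26318558, 51.4 kb from the gap, LEF1 folds were 2.23, 1.99 and 2.23 in controls and 1.63, 1.32 and 1.51 with prednisolone. TCF7L2 folds there were 2.17, 1.71 and 1.48, and 1.93, 2.12 and 2.51. At chr17:22247801-22248538, 11.5 kb from the gap, LEF1 folds were 2.21, 1.92 and 1.89 in controls and 1.71, 1.52 and 1.62 with prednisolone, while TCF7L2 had folds of 1.54, 1.80 and 1.74, and 2.01, 2.28 and 2.15. This region was one of the 35 gained by TCF7L2. At chr17:22259552-22260126, at the gap edge, LEF1 folds were 2.18, 2.12 and 1.69, and 1.53, 1.28 and 1.41. TCF7L2 was a top peak there in prednisolone 2 and 3 and in no control. The LEF1 groups did not overlap in fold at any of these 3 regions. That separation is tied to their selection as LEF1 losses and is not a further result. Farther out, chr4:48048874-48050533 and chr19:28306982-28307951 had LEF1 control folds of 4.67 to 8.58 and treated folds of 2.15 to 2.84.

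Most members among the 2000 top peaks were found again in the replicates. Of the pericentromeric TCF7L2 top peaks, a mean of 95.1% in controls and 89.2% with prednisolone overlapped a peak in the full lists of both other replicates, against 98.1% and 90.8% of all other top peaks. In LEF1 the values for members were 100% in both treatments. Of the treated TCF7L2 top peaks, 63.3% of members overlapped a peak in all 3 control lists, against 91.5% of the others. Of the TCF7L2 members, 39.1% in controls and 57.0% with prednisolone met no peak in any of the 3 LEF1 lists of the same treatment, against 11.98% and 11.97% of all other TCF7L2 top peaks. Among treated members with a fold under 2 this share was 73.4%.

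Consensus regions, with a peak among the 20000 top peaks in all 3 libraries of a group, gave the overlap of the antibodies directly. In controls 49 of 123 pericentromeric TCF7L2 consensus regions (39.8%, 95% interval 31.1 to 49.1) overlapped a LEF1 consensus region by at least 1 bp, against 47.4% of those elsewhere. With prednisolone 31 of 222 (14.0%, 95% interval 9.69 to 19.2) did so, against 47.6% (45.7 to 49.6) elsewhere. As a share of the pericentromeric LEF1 consensus regions, 47 of 225 (20.9%) overlapped a TCF7L2 region in controls and 30 of 235 (12.8%) with prednisolone, against 20.8% and 10.6% elsewhere. These readings changed with the list length. Among the 2000 top peaks, 32.4% of the TCF7L2 consensus members overlapped LEF1 in controls and 13.5% with prednisolone, against 12.9% and 10.3% elsewhere. Of the LEF1 consensus members there, 25.6% and 35.5% overlapped TCF7L2, against 11.4% and 8.09% elsewhere. Among the 20000 top peaks the number of pericentromeric consensus regions was 123 and 222 for TCF7L2, and 225 and 235 for LEF1. No share was tested between treatments, since a consensus needs all 3 libraries of a group.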

How the data were processed

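CUT&RUN peak lists of 12 libraries were used, 3 in each of 4 groups, and samples were grouped by the labels' antibody and treatment. The authors called peaks in each library separately with MACS2 on hg19, per the submitters' processing notes. The MACS2 version, aligner, control library, duplicate handling and any removal of problem regions are not given in the sources used here. Per peak the authors deposited a fold ratio over modelled background, a −log10 p-value, a −log10 q-value and a score, and the score was not used. The number of replicates sets the precision, since read depth was not used. No hg19 sequence or annotation was used here, so no region was assigned to a gene and no motif was searched.

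Members were found from the summit position. Peaks were ranked within a list by p-value, then fold, then position, and cut to 2000 or 20000. Regions were merged at an overlap of at least 1 bp. Group differences of log2 shares were tested by exact permutation, and within-list differences by exact sign flips, with Benjamini-Hochberg adjustment over 14 tests and a threshold of 0.05. The permutation treats libraries as independent replicates. Named regions were, per antibody, the 5 with the best worst rank over its 6 lists, the 5 gained and 5 lost ones with the best worst rank, and the 3 bins of 100 kb with the most top peaks. In simulated lists, 200 of 200 planted gained regions were recovered among 4000. These lists were slightly shifted copies of a single list, with the planted peaks taken out of the control copies. The simulation had no cut by rank, so it checks the merging and counting only. The members and lists were chosen with earlier results of these data known. Alternatives included list length, ranking, distance, q-value, the replicate number as a block and leaving out each library. Python 3.11.15, pandas 2.3.3, numpy 2.4.6 and scipy 1.17.1 were used.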

Additional observations from a re-analysis of the deposited data

Results flagged for a closer look

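The effect of prednisolone on pericentromeric peaks differed between the antibodies in both measures tested. For the share of the full lists, the TCF7L2 treatment effect minus the LEF1 treatment effect was 0.353 on the log2 scale. For the share of the 2000 top peaks it was 1.88. Both were tested as the difference itself, by exact permutation of the treatment labels within each antibody (p = 0.005 and p = 0.01, two-sided). No explanation was tested.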

How the results depend on the processing

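Of 264 values recomputed under other settings, 196 were classed as unchanged, 30 fell short of the threshold, 1 newly passed it, 29 moved and 8 reversed. The threshold was applied to unadjusted p-values, so many that fell short had already missed it after adjustment. Region counts, consensus overlaps and values within set A or B have no p-value and hence no side of the threshold. For treatment differences within an antibody the smallest possible exact permutation p lies above it, so their side was fixed in advance. Directions of all shares held within 1 Mb, 3 Mb and 250 kb of a gap.

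TCF7L2 minus LEF1 for top peaks fell short with 500 top peaks (0.54), folds of at least 2 ranked anew (0.076) and without 3 bins (0.73), and reversed when ranked by fold (−0.25). In the full lists it fell short within 250 kb (0.32) and reversed for the number of peaks that reached a −log10 q-value of 5 (−2.15), a total in which LEF1 lists are longer. The difference between treatment effects on top peaks was 0.68 when ranked by fold. Fold against other peaks was −1.50 for TCF7L2 among 2000 top peaks and −0.041 for LEF1 in full lists. Length was −0.020 for LEF1 in full lists, and for TCF7L2 −0.49 among 2000 top peaks and −0.023 against the flank. Density against the flank was 0.023 for LEF1 among 2000 top peaks, and 0.32 and 0.91 for TCF7L2 among 20000 and 2000. The cause was not tested.

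Gained and lost regions numbered 4 and 6 for LEF1 and 35 and 1 for TCF7L2 among 2000 top peaks, and 2 and 3, and 18 and 0, among 500. The counts among 500 top peaks have no share over all regions beside them and cannot be judged against it. Those with no peak of any strength in the opposite treatment were 1 and 0, and 14 and 3. In full lists LEF1 lost 155, and TCF7L2 gained 106 and lost 110. The share of treated pericentromeric LEF1 consensus regions overlapping TCF7L2 was 35.5% among 2000 top peaks, against 8.09% elsewhere.

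Same-numbered control and prednisolone libraries did not deviate together (correlations over member regions −0.0318 to 0.0314 for LEF1 and −0.00820 to −0.00504 for TCF7L2). With the replicate number as a block, top peaks gave 0.99 (exact permutation p = 0.125) for TCF7L2 minus LEF1. They gave 1.88 (exact permutation p = 0.0625) for the difference between treatment effects. The block took no other unadjusted p-value across the threshold.

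Leaving out 1 library at a time, the full-list share gave −0.09 to −0.06 for LEF1 treatment, 0.17 to 0.32 for TCF7L2 treatment, 0.20 to 0.30 between antibodies and 0.25 to 0.40 between treatment effects. Top peaks gave −0.36 to −0.21, 1.43 to 1.88, 0.75 to 1.21 and 1.69 to 2.14. Without LEF1 control 1, 2 or 3 the antibody difference had exact permutation p = 0.075, 0.07 or 0.065. Fold differences were −0.086 to −0.076 for LEF1 and −0.10 to −0.07 for TCF7L2, length −0.13 to −0.10 and −0.012 to 0.090 (negative without prednisolone 3), and density −0.38 to −0.36 and −0.11 to −0.02; with 5 libraries the exact permutation p cannot fall under 0.0625. Region counts were 27 to 52 gained and 14 to 33 lost for LEF1, and 69 to 130 gained and 12 to 39 lost for TCF7L2, since fewer libraries need to share a peak. They have no share over all regions beside them.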
